A study of Mus musculus with 8 samples.

Results

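The 47 genes described here are G2/M and mitosis genes, a list of known cell cycle genes found by symbol among the 27998 genes of the count table, and all 47 had counts. KL cells, which are bone marrow cells that carry the receptor c-Kit (CD117) and lack the surface markers of mature lineages, were profiled by single-cell RNA-seq. Female B6 mice aged 3 to 4 months were either kept specific-pathogen-free (SPF, 10 mice in 4 pools) or co-housed for 1 month in a conventional facility (CVT, 10 mice in 4 pools). A pool held cells of 2 or 3 mice that could not be told apart, so the pool was the replicate, with n = 4 per housing group. SPF pools are numbered 1, 2, 7 and 8 and CVT pools 3, 4, 5 and 6. Pools 1 to 4 came from the mice numbered 1 to 10 and pools 5 to 8 from those numbered 11 to 20, and these are called the pool sets. Cells were assigned to pools by the number that ends each cell name, matched to the number in the sample label, which gives 12331 SPF cells. Taking pools 1, 4, 6 and 7 as SPF would give 12326 cells, and the group sizes in the study's text do not tell these assignments apart. Every housing value below rests on the label match, and shares of cell states that bear on it without settling it are given below.

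After DNA replication a cell builds up cyclin B with its kinase Cdk1, which switches on mitosis. Aurora and Polo-like kinases then assemble the spindle, kinetochores attach chromosomes to it, and the anaphase-promoting complex marks cyclin B and securin for destruction so that sister chromatids part and the cell divides. In bone marrow most stem cells are quiescent, committed progenitors divide often, and granulocytes leave the cell cycle as they mature. Transcripts of most of these genes build up from late S phase to mitosis, so their summed level rises with the share of cells in those phases. In summed counts, more cells in division and more RNA per dividing cell cannot be told apart.

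Many genes of this kind carry 2 short elements near the start of transcription, CCAAT boxes, bound by NF-Y, and the cell cycle genes homology region (CHR), bound by the DREAM and MuvB complexes. RefSeq promoter sequences on GRCm38.p6 were searched from 250 bases before to 50 bases after the start for the letters TTTGAA or TTCGAA (CHR) and CCAAT, on both strands. Of the 47 genes 41 matched, with 43 promoters. CHR letters were found in 34 of the 43 (79.1%), against 19.2% of all 32851 promoters of that length, and CCAAT letters also in 79.1%, against 37.4%. Both were present in 69.8%, against 7.52%, and in 1 promoter they overlapped. In 32 of the 34 promoters with CHR letters (94.1%) these lay within 100 bases before or in the 50 bases after the start, against 44.7% of all promoters that have them. Where CCAAT came before CHR, the median spacing was 23 bases over 29 promoters, against 54 over 1300 promoters of the whole table. Nuf2, Nusap1, Tacc3, Pttg1 and Birc5 had neither in the window. A match describes letters, not a bound site, and the submitters' notes name an older build (mm9) than that of these sequences.

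The 5 promoters below are shown because both elements lie within the run printed, and the genes recur in the results. They encode the kinase of mitotic entry, an activator and an enzyme of the anaphase-promoting complex, the topoisomerase of chromosome condensation and a spindle motor. Each run is the strand of the gene from 73 to 4 bases before the start (RefSeq, GRCm38.p6), and capitals mark CHR and CCAAT letters on either strand.
Cdk1: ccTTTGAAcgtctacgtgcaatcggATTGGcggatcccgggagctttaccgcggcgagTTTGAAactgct
Cdc20: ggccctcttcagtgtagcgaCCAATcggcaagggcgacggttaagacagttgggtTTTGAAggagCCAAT
Ube2c: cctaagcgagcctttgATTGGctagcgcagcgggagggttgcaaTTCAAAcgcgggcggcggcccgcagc
Top2a: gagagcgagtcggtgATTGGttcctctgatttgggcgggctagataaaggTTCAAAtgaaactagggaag
Kif11: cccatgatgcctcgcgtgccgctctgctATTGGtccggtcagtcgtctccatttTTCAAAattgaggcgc
The runs lie at chr10:69352916-69352985 (minus strand), chr4:118437347-118437416 (minus), chr2:164769856-164769925 (plus), chr11:99024193-99024262 (minus) and chr19:37376309-37376378 (plus). The bases between CCAAT and CHR letters number 28 in Cdk1, 30 in Cdc20, 23 in Ube2c, 30 in Top2a and 21 in Kif11.

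The table held 29891 cells, 1888 to 4845 per pool, with 19041749 to 59812346 unique molecular identifiers (UMIs, each a transcript counted once) per pool and a median of 7529.5 to 12771.5 UMIs per cell. Pools 1 and 7 had the fewest UMIs. A Kit UMI was found in 48.9% to 52.6% of cells, and the lineage markers of the sort summed to 32.9 to 122 CPM, the UMIs of a gene or list per 1000000 UMIs of the pool or gate. Genes of T and NK cells summed to 262 to 362 CPM and those of B cells to 30.1 to 56.3 CPM. Mature neutrophil genes ranged from 109 to 1021 CPM in SPF and from 54.6 to 421 CPM in CVT pools, while red cell genes split the pool sets (135 to 174 CPM in pools 1 to 4, 1548 to 4510 CPM in pools 5 to 8). In all, 522 cell barcodes occurred in more than 1 pool (1048 cells).

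Cells were placed in 12 gates by UMIs of genes outside the list of 47: stem (Procr with Hlf or Mecom), multipotent (Hlf or Mecom without Procr), lymphoid (Dntt and Flt3), megakaryocyte-erythroid (Gata2 and Apoe), megakaryocyte (Pf4 with Gp9 or Gp1bb), erythroid (Car1 and Ermap), basophil-mast (Mcpt8 and Cpa3), early granulocyte-monocyte (Mpo and Cebpa), neutrophil (Elane and Cebpe), monocyte-dendritic (Irf8 and Csf1r), specific granule (Ltf) and late granulocyte (Retnlg). Mpo, Elane, Ltf and Retnlg needed at least 3 UMIs and every other gene at least 1. The early granulocyte-monocyte gate excluded cells with a Cebpe or Irf8 UMI. The neutrophil gate asked for Ltf and Retnlg each under 3 UMIs, and the monocyte-dendritic and specific granule gates for Retnlg under 3. A cell that met more than 1 gate was left out (31.0% of cells), and 16.2% met none. The neutrophil gate held 4.09%, 4.62%, 2.81% and 3.81% of cells in CVT pools 3 to 6. In SPF pools 1, 2, 7 and 8 it held 1.91%, 2.47%, 1.99% and 2.65%. With pools 1, 4, 6 and 7 as SPF the groups would overlap. The stem gate held 0.929%, 0.647%, 1.52% and 1.29% against 1.43%, 1.66%, 1.74% and 2.82%. In its own clusters the study found more granulocyte-monocyte progenitors and fewer long-term stem cells in CVT mice. Gates are not those clusters, so the assignment stays unsettled. The erythroid gate held the deepest cells, with a median of 20029 UMIs, against 16112 in the neutrophil, 7061 in the specific granule, 6191.5 in the late granulocyte and 5906 in the stem gate. Depth thus moved with the gates, and its part in the differences of level between them was not tested beyond the thinning described below.

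Across these states the 47 genes were lowest in stem-gate cells and highest in committed erythroid cells and in granulocytes at the specific granule stage. Their summed level was 1199 ± 426 CPM (SD, n = 8 pools) in the stem gate, 1865 ± 316 in the multipotent, 2556 ± 473 in the lymphoid and 2052 ± 231 in the megakaryocyte-erythroid gate. It reached 4233 ± 264 CPM in the erythroid gate and 4213 ± 642 CPM in the specific granule gate. The erythroid gate exceeded the stem gate in 8 of 8 pools, and these highest levels differed by less than their spread over pools.

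Within granulocyte development the summed level went from 1943 ± 591 CPM in the early granulocyte-monocyte gate and 2784 ± 246 CPM in the neutrophil gate to the specific granule peak, and was 2624 ± 259 CPM in the late granulocyte gate. The specific granule gate lay above the neutrophil gate in 8 of 8 pools and the late granulocyte gate in 3 of 8. Monocyte-dendritic cells stood at 3171 ± 305 CPM, megakaryocyte cells at 2294 ± 408 CPM (7 pools) and basophil-mast cells at 2599 ± 649 CPM (6 pools).

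**Figure D1:**
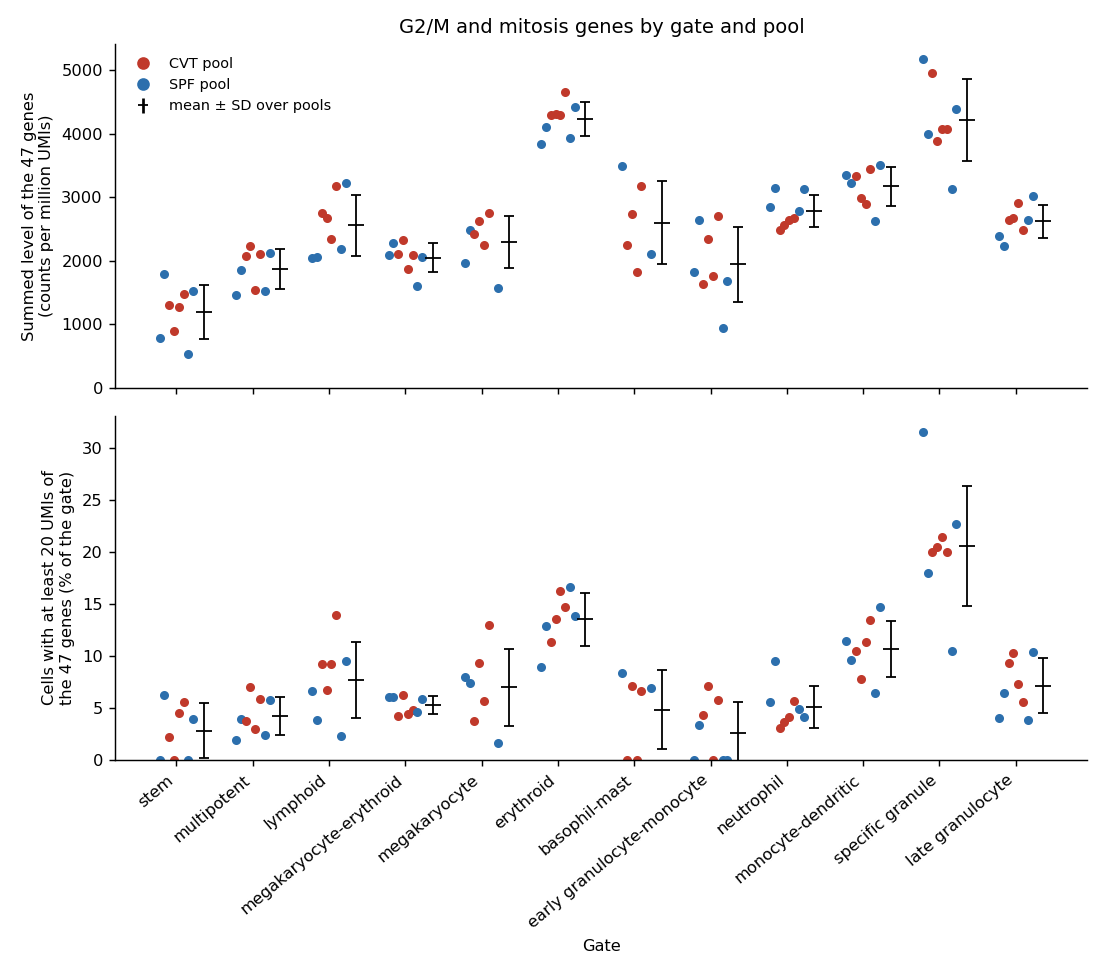
Summed level of the 47 genes in CPM (upper panel) and percent of cells with at least 20 of their UMIs after thinning (lower panel) for 12 gates, with 1 point per pool (CVT red, SPF blue) and the mean ± SD over pools. The stem gate is lowest at 1199 ± 426 CPM, and the erythroid and specific granule gates are highest at 4233 ± 264 and 4213 ± 642 CPM.

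To compare single cells at 1 depth, every cell was thinned to 2759 UMIs, the smallest total of any cell, so none was left out. A cell then held a median of 3 UMIs of the 47 genes and at most 106, and 2320 cells (7.76%) held at least 20. These are called high-count cells here, a range of a score and not a cell type, since 1231 cells held 18 to 22. High-count cells made up 13.5% ± 2.55 (SD, n = 8) of the erythroid gate, 20.6% ± 5.78 of the specific granule gate, 10.7% ± 2.73 of the monocyte-dendritic gate, 7.12% ± 2.64 of the late granulocyte gate and 2.81% ± 2.61 of the stem gate. Without thinning, 78.4% of all erythroid-gate cells and 8.95% of all stem-gate cells passed the same count, against 13.3% and 3.58% of the same cells after thinning.

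The specific granule gate was split. After thinning, 19.8% of its 657 cells had no UMI of the 47 genes and 20.2% had at least 20, whereas 1.22% of the 1885 erythroid-gate cells and 1.97% of the 965 neutrophil-gate cells had none. In the late granulocyte gate 29.7% of 828 cells and in the stem gate 22.6% of 447 cells had none. Without thinning these shares without a UMI were 10.8% (specific granule), 0% (erythroid), 0% (neutrophil), 17.9% (late granulocyte) and 6.71% (stem). Late granulocytes, which no longer divide in textbook accounts, held a median of 1 such UMI, so a few UMIs in a cell are not read as division here.

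**Figure D2:**
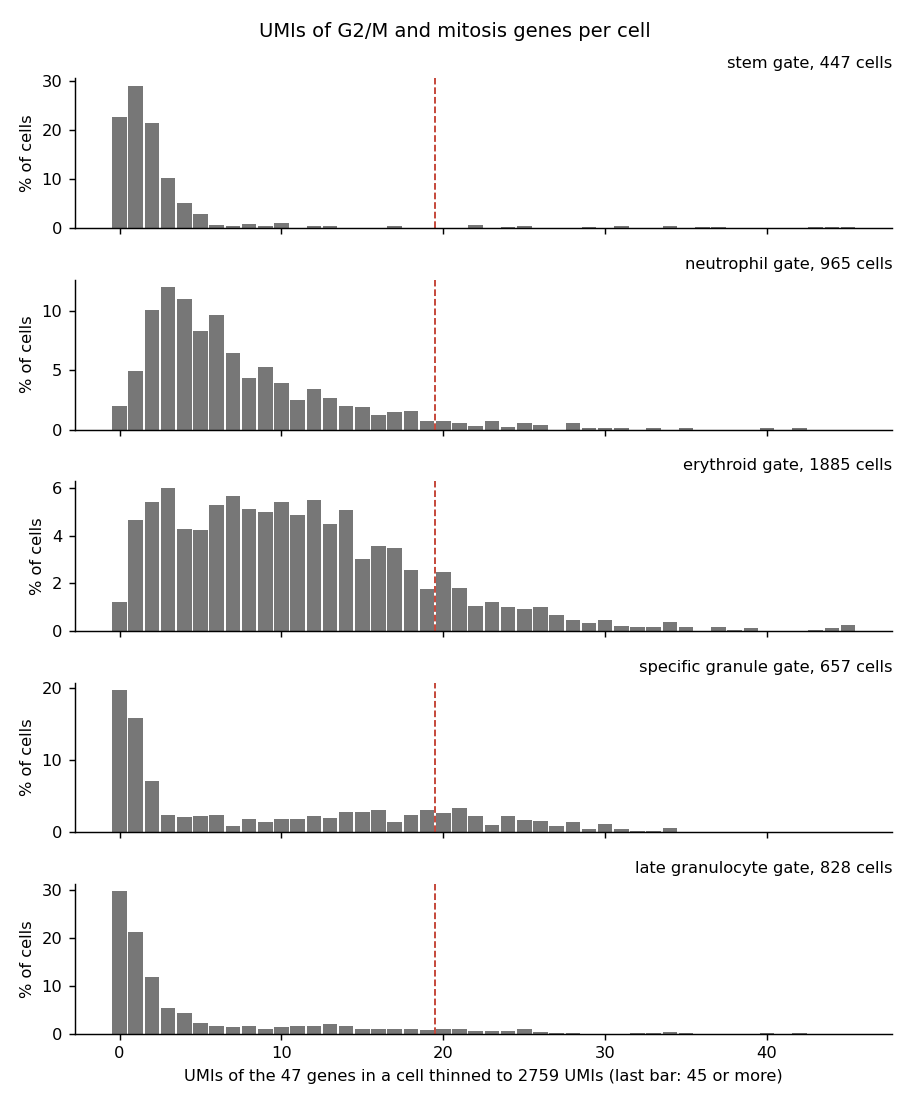
Histograms of the UMIs of the 47 genes per cell thinned to 2759 UMIs, as percent of the cells of 5 gates, with the last bar holding cells with 45 or more and the dashed line marking the count of 20. Stem-gate cells pile up at 0 to 3, erythroid-gate cells spread widely around a median of 10, and specific granule cells show a pile at 0 and a broad group that reaches past 20.

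The genes did not share 1 order of gates. Of the 47, 26 had their highest mean level in the specific granule gate, 18 in the erythroid gate and 1 each in the megakaryocyte gate (Ckap2l), the neutrophil gate (Cks1b) and the monocyte-dendritic gate (Aurkb). The lowest mean was in the stem gate for 41, the early granulocyte-monocyte gate for 3, the megakaryocyte gate for 2 and the specific granule gate for 1. That last gene was Pttg1, which encodes securin, the inhibitor of the protease that parts sister chromatids: it stood at 11.6 ± 4.88 CPM in the specific granule gate and between 29.0 and 47.6 CPM in the other 11. Ckap2l, a spindle protein, stood at 52.4 ± 16.9 CPM over 7 pools in the megakaryocyte gate, against 28.8 ± 4.01 CPM in the erythroid gate.

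**Figure D3:**
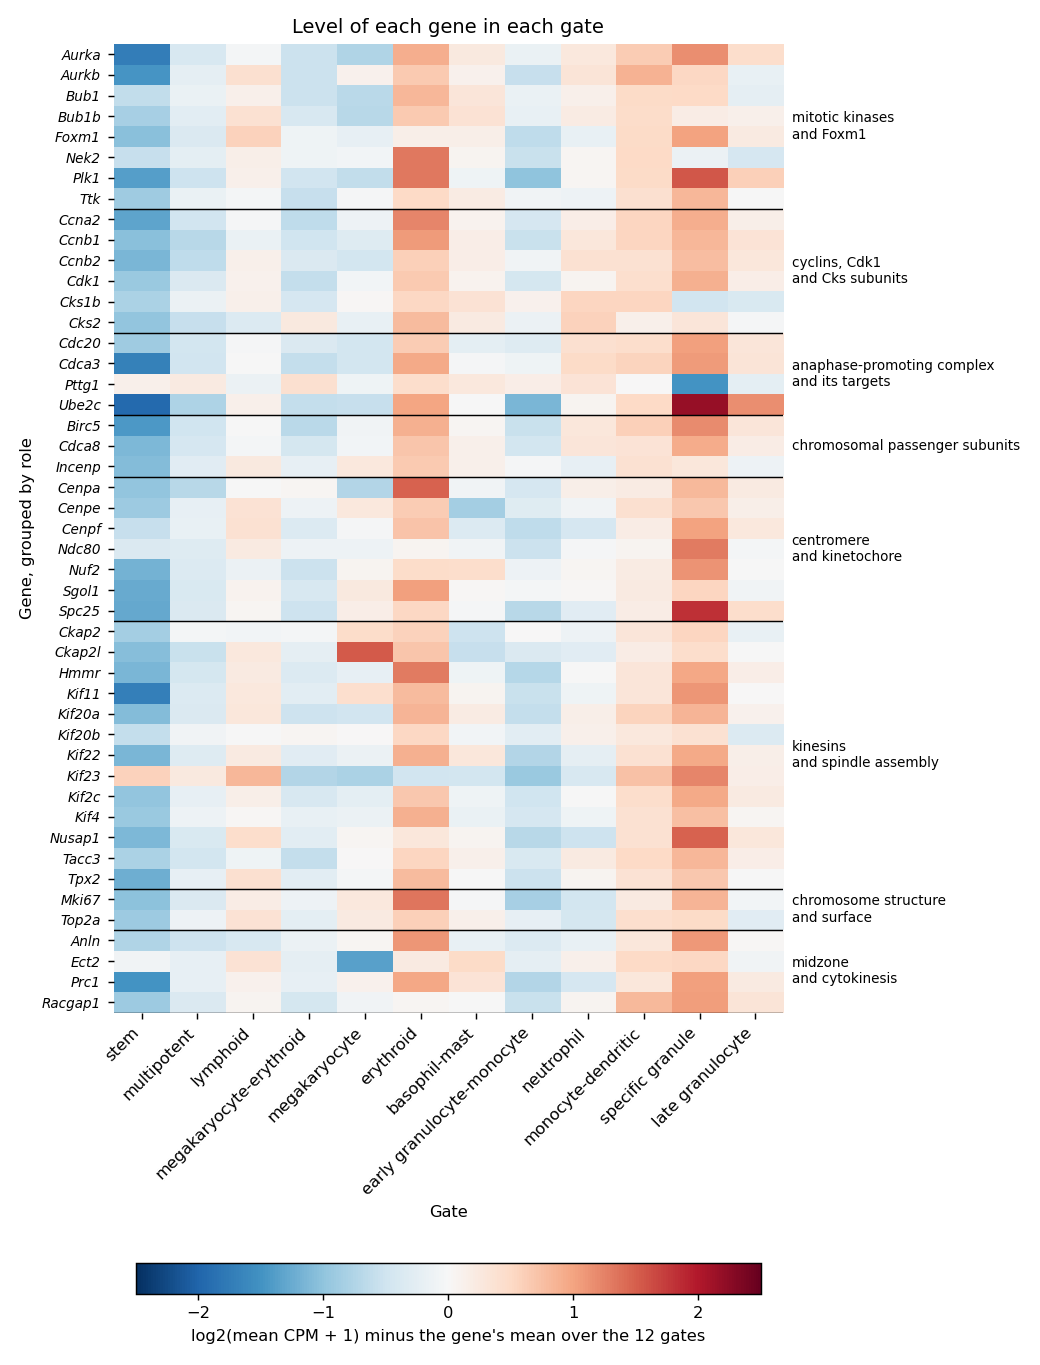
Level of each of the 47 genes (rows, grouped by role) in each of 12 gates (columns), as log2(mean CPM + 1) minus the mean of that gene over the gates, red above and blue below. The stem column is blue for nearly all genes, the erythroid and specific granule columns are red for most, and Pttg1, Kif23 and Ckap2l break the pattern.

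The gates were then compared pool by pool for all genes with edgeR's quasi-likelihood test, with the pool as a block and Benjamini-Hochberg adjustment over all genes tested. The 6 comparisons share the stem or the neutrophil gate, so they are not independent of each other. Committed erythroid cells carried far more of the 47 transcripts than stem-gate cells. Of 45 genes tested 42 were higher in the erythroid gate (33.9% of all 6865 genes tested were) and 1 was lower (34.7% of all genes), with a median log2 fold change of 1.79, against 0.01 over all genes. The filter on low counts, used between all gates, could be met by the erythroid gate alone. Genes scarce in the stem gate, such as Nek2 (12 UMIs there in all), Kif4 (15) and Anln (15), could thus hardly come out lower. The calls of such genes are not separate support. All 6 cyclin, Cdk1 and Cks genes rose, as did all 3 chromosomal passenger subunits and both Mki67 and Top2a. All 7 tested mitotic kinases rose too, but they held 12 (Nek2) to 36 (Aurkb) UMIs in the stem gate and are such scarce genes. When housing groups were compared within the stem gate, 13 of the 47 genes passed the filter. None of these kinases did, nor did Ccnb1, Ccna2 or Incenp. The rise was shared by other cell cycle genes. Of DNA replication and G1/S genes, a list of 48, 40 of 46 tested were higher and 1 lower (median 1.01). Of other mitosis genes, a list of 64 outside the 47, 43 of 46 tested were higher and 0 lower (median 1.34).

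Aurora A (Aurka), a kinase of spindle poles, had the largest log2 fold change of the genes tested. In the erythroid gate Aurka stood at 27.7, 34.8, 38.7, 36.0, 37.6, 42.9, 52.7 and 42.0 CPM in pools 1 to 8, and in the stem gate at 0, 4.17, 14.1, 4.71, 9.81, 3.11, 0 and 7.21 CPM. The gates did not overlap, although the stem-gate values rest on 18 UMIs in all (log2 fold change 2.72 ± 0.26, adjusted p in edgeR 5.39e-13). Aurka is thus among the genes scarce in the stem gate, and its call is not separate support. Ube2c, the ubiquitin-conjugating enzyme of the anaphase-promoting complex, followed at 173 ± 30.2 against 22.1 ± 22.6 CPM (2.56 ± 0.17). It held 95 UMIs in the stem gate and did not pass the filter within that gate either. Cks2, a small subunit of Cdk1, stood at 655 ± 38.0 against 190 ± 63.8 CPM (1.76 ± 0.08), and Cdk1 at 136 ± 14.6 against 44.97 ± 19.6 CPM (1.48 ± 0.12).

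Kif23, the kinesin of the central spindle that works in cytokinesis, went the other way. Its level in the stem gate was 39.7, 22.9, 14.1, 4.71, 36.8, 34.3, 16.4 and 34.9 CPM in pools 1 to 8, from 82 UMIs in all, and in the erythroid gate 8.09, 11.9, 13.9, 11.2, 12.5, 13.4, 10.3 and 13.4 CPM, from 468 UMIs. The stem gate was above the erythroid gate in 7 of 8 pools, the exception being pool 4, and the log2 fold change was -1.11 ± 0.22 (adjusted p in edgeR 1.35e-05). The call held in SPF pools alone, in CVT pools alone and without pools 1 and 7. With gates set on thinned cells Kif23 did not pass the filter on low counts, so 0 of the 34 genes tested were lower there and 33 were higher. Its level was 30.4 ± 6.09 CPM in the lymphoid gate and 40.4 ± 10.7 CPM in the specific granule gate.

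The neutrophil gate also exceeded the stem gate. Of 31 genes tested 29 were higher (30.4% of all genes) and 0 lower (33.5%), with a median log2 fold change of 1.18; the other 16 did not pass the filter on low counts. With gates set on thinned cells 15 genes passed the filter and 13 of them were higher (27.9% of all genes). Cdca3, which brings the kinase Wee1 to destruction at mitotic entry, stood at 85.1 ± 8.96 CPM in the neutrophil and 18.1 ± 9.29 CPM in the stem gate (2.17 ± 0.16), and Aurka at 24.5 ± 5.48 against 5.39 ± 4.84 CPM (2.17 ± 0.29). The stem-gate values rest on 63 UMIs for Cdca3 and 18 for Aurka. Neither gene passed the filter within the stem gate, so both could hardly come out lower. Cenpf, a kinetochore protein of late G2, stood at 37.4 ± 7.36 and 33.5 ± 23.9 CPM (0.01 ± 0.20) and did not pass the test.

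Lymphoid-gate cells also exceeded stem-gate cells. Of 34 genes tested 31 were higher than in the stem gate (15.4% of all genes) and 0 lower (15.7%), with a median log2 fold change of 1.17. Here the filter could be met by the lymphoid gate alone, so genes scarce in the stem gate could hardly come out lower. With gates set on thinned cells 18 passed the filter and 15 were higher (12% of all genes), and Cdc20 lost its call (adjusted p in edgeR 0.129). Aurkb, the kinase of the chromosomal passenger complex, stood at 41.3 ± 10.9 against 10.6 ± 4.95 CPM (1.87 ± 0.21), and Ube2c at 95.5 ± 29.9 against 22.1 ± 22.6 CPM (1.76 ± 0.17). The stem-gate values rest on 36 UMIs for Aurkb and 95 for Ube2c, and neither gene passed the filter within that gate. Pttg1 (31.2 ± 3.29 against 38.3 ± 6.67 CPM) and Kif23 did not pass.

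Between both committed lineages, erythroid cells stood above neutrophil-gate cells. Of 47 genes tested 37 were higher (38.3% of all genes) and 1 lower (34.3%), with a median log2 fold change of 0.61, against 0.04 over all genes. G1/S genes moved less (29 of 48 higher, 4 lower, median 0.22). Of the other mitosis genes 43 of 62 tested were higher and 9 lower (median 0.53). Mki67, which coats chromosomes in mitosis and is the gene of the Ki-67 proliferation stain, stood at 192, 181, 186, 185, 209, 233, 215 and 212 CPM in the erythroid gate of pools 1 to 8 and at 62.8, 70.2, 39.9, 54.1, 48.4, 60.0, 49.95 and 69.1 CPM in the neutrophil gate. Every erythroid value lay above every neutrophil value (log2 fold change 1.69 ± 0.07, adjusted p in edgeR 2.79e-19). Nek2, a kinase that parts centrosomes, stood at 17.8 ± 2.40 against 6.82 ± 1.57 CPM (1.36 ± 0.14).

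The Cdk subunit Cks1b was the gene called lower in the erythroid gate, although its CPM overlapped (364 ± 27.0 against 371 ± 21.9, log2 fold change -0.17 ± 0.04), and its call was lost with plain library totals as the scale (-0.01). Kinesins and spindle assembly genes rose in 12 of 13 cases, Kif23 being the exception at -0.24 ± 0.12. In SPF pools alone 24 of 46 genes were higher (29% of all genes) and 2 lower (28.5%), against 37 higher over all pools. Kif23 was called lower in SPF pools alone (-0.48, adjusted p in edgeR 0.049). It was also called lower with gates set on thinned cells (-0.52, adjusted p in edgeR 0.0051).

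Of the granulocyte gates tested against the neutrophil gate, the specific granule gate gave the larger shift. The step from the specific granule to the late granulocyte gate was not tested. Of 44 genes tested 42 were higher than in the neutrophil gate (37% of all genes) and 2 lower (37%), with a median log2 fold change of 1.67. All 7 centromere and kinetochore genes, all 13 kinesin and spindle assembly genes and all 3 tested midzone and cytokinesis genes were higher. The scale matters here: with plain library totals in place of TMM the median of all genes moved to -0.86, and 37 of the 44 were then higher (15% of all genes) and 3 lower (69%), with a median of 0.81.

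Spc25, a subunit of the Ndc80 kinetochore complex, stood at 151, 119, 136, 94.9, 95.6, 131, 92.7 and 135 CPM in the specific granule gate of pools 1 to 8 and at 34.2, 39, 21.4, 18.03, 17.1, 20.5, 26.4 and 39.1 CPM in the neutrophil gate. The gates did not overlap (log2 fold change 3.05 ± 0.12, adjusted p in edgeR 2.82e-17). Ube2c stood at 592, 356, 436, 307, 411, 380, 282 and 419 CPM against 95.1, 102, 60.6, 69.0, 77.3, 102, 99.9 and 125 CPM, again without overlap (2.96 ± 0.11). Nusap1, which bundles spindle microtubules, stood at 137 ± 30.8 against 33.7 ± 15.1 CPM (2.85 ± 0.17), and its promoter had neither motif in the window.

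Both genes lower in the specific granule gate were Pttg1 and Cks1b. Pttg1 stood at 5.39, 14.8, 14.9, 4.997, 14.1, 7.05, 16.4 and 15.3 CPM against 55.2, 39.6, 41.8, 44.1, 49.0, 40.9, 38.9 and 47.3 CPM, with every specific granule value below every neutrophil value (-1.04 ± 0.19). Cks1b stood at 182 ± 25.4 against 371 ± 21.9 CPM (-0.20 ± 0.07). Its relative Cks2 was called higher on the TMM scale (0.55 ± 0.07) while its CPM was lower, 464 ± 66.4 against 565 ± 43.2, and with library totals it was called lower (-0.32).

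DNA replication and G1/S genes did not share this shift. Of 44 tested from a list of 48, 8 were higher and 21 lower in the specific granule gate (37% of all genes each way), with a median log2 fold change of -0.31, and their summed CPM was lower in 8 of 8 pools. In the other mitosis genes, a list of 64 outside the 47, 36 of 44 tested were higher and 4 lower, with a median of 1.40. With library totals 1 G1/S gene was higher and 39 were lower, and 27 other mitosis genes were higher and 11 lower (15% and 69% of all genes). The 47 genes gave 2.37 ± 0.73 UMIs for each G1/S UMI in the specific granule gate, against 0.76 ± 0.08 in the neutrophil, 0.88 ± 0.08 in the erythroid and 0.47 ± 0.16 in the stem gate (n = 8).

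The late granulocyte comparison depended on the scale, on how cells were gated and on the pools. On the TMM scale 31 of 45 genes were higher than in the neutrophil gate (28.1% of all genes) and 1, Cks1b, lower (27.3%), with a median log2 fold change of 0.52. With library totals the median of all genes was -0.46, and 8 of the 45 were higher (15.5% of all genes) and 4 lower (52.7%). With gates set on thinned cells and TMM, 4 of 39 were higher (29.7% of all genes) and 5 lower (29.8%), with a median of -0.03 and negative values for Ccnb1, Cdk1, Birc5, Cdc20 and Aurkb. In SPF pools alone 12 of 42 were higher (22.4% of all genes) and 1 lower. Ube2c was higher on both scales, at 197 ± 27.0 against 91.4 ± 21.1 CPM (1.57 ± 0.13), and without overlap between the gates. Cdc20, Ccnb1 and Cdk1 did not keep a call across scales. Of the G1/S genes 0 of 46 were higher and 28 lower.

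**Figure D4:**
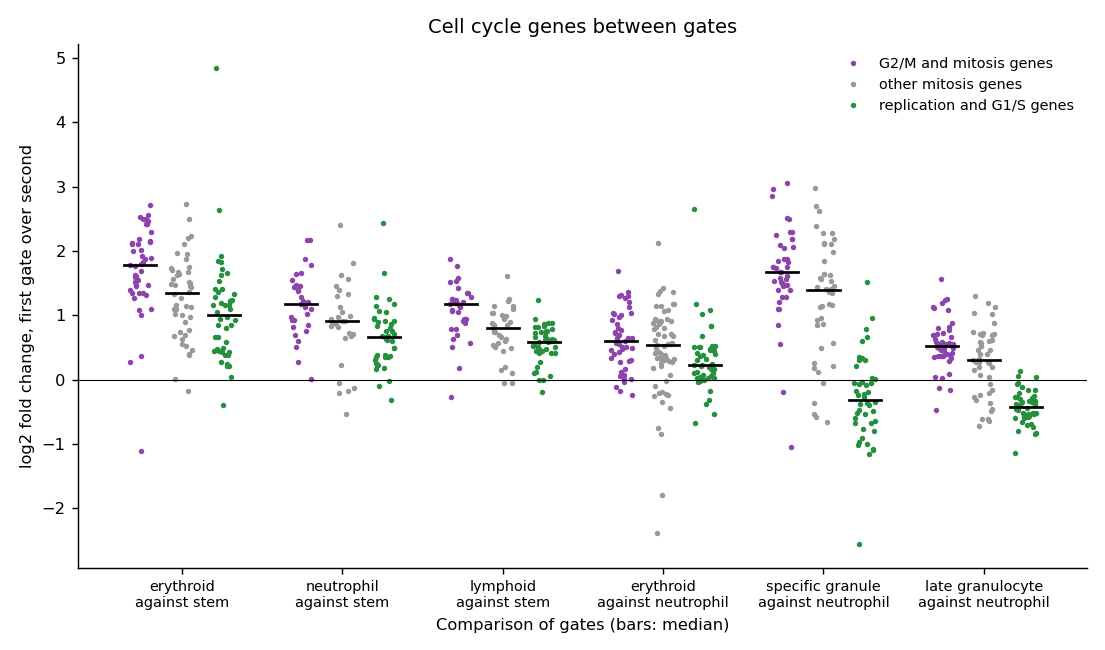
Log2 fold changes between gates for the tested genes of the 47 (purple), the other mitosis genes (grey) and the DNA replication and G1/S genes (green) in 6 comparisons, with 1 point per gene and bars at the medians. The 47 genes have medians of 1.79, 1.18, 1.17, 0.61, 1.67 and 0.52. The G1/S medians, in the same order, are 1.01, 0.67, 0.59, 0.22, -0.31 and -0.42.

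Among single cells the composition of the 47 transcripts changed with their amount. The same transcripts set the bins of amount, so the shares are a description. In thinned cells with 1 to 4 such UMIs, cyclins, Cdk1 and Cks subunits supplied 53.1% ± 0.85 (SD, n = 8 pools) of them, and in cells with 40 or more 24.4% ± 1.32. Kinesins and spindle assembly genes went from 8.04% ± 0.29 to 15.6% ± 1.45, and the anaphase-promoting complex group from 10.1% ± 0.42 to 13.8% ± 1.60. G1/S UMIs per cell were not highest where mitosis UMIs were: they averaged 5.17 ± 0.96 in cells with 0 UMIs of the 47 genes, 12.7 ± 0.67 in cells with 5 to 9 and 8.05 ± 1.98 in cells with 40 or more. Over all 29891 cells the rank correlation of both sums was 0.33. It was -0.15 among the 965 neutrophil-gate cells and 0.44 among the 657 specific granule cells. Cells of a gate share libraries and gating genes, and the deepest cells before thinning were those with 10 to 19 such UMIs (median 15984).

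Single genes differed in how closely they followed the others. With high-count cells set by the other 46 genes each time, Ube2c was 9.27 ± 1.82 times (SD, n = 8 pools) higher in high-count than in other cells, at 620 ± 45.2 against 68.7 ± 12.3 CPM. Nusap1 was 8.75 ± 1.23 and Cenpf 7.67 ± 1.29 times higher. At the other end Cks2 was 2.60 ± 0.27, Cks1b 2.13 ± 0.18 and Pttg1 1.08 ± 0.08 times higher, Pttg1 standing at 44.2 ± 3.95 CPM in 2290 high-count cells and 41.0 ± 1.59 CPM in the others. Plk1, the Polo-like kinase, stood at 7.46 ± 1.63 and Foxm1, a transcription factor of G2/M genes, at 4.17 ± 0.55. These ratios are a description, since the genes share their cells and depth.

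Housing was the study's own comparison: whether co-housing in the conventional facility altered KL cells. In all KL cells the 47 genes leaned slightly higher in CVT pools, without 1 gene passing the test. In edgeR, 0 of 47 were called (0% of 13092 genes tested in either direction), 7 had an unadjusted p under 0.05 with a higher CVT level (2.99% of all genes, the unadjusted share for higher), and 0 had housing groups that did not overlap (0.901% of all genes were apart with CVT higher and 5.26% with CVT lower). All 47 log2 fold changes were positive, against 46.5% of all genes, with a median of 0.18 against -0.01. The lean was not particular to the 47. Of the other mitosis genes 59 of 64 were positive (median 0.125), and of the G1/S genes 43 of 48 (median 0.087). These sign counts rest on genes that move together in the same cells.

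Plk1 had the largest value. It stood at 24.3, 24.8, 15.9 and 20.4 CPM in CVT pools 3 to 6 and at 18.5, 17.8, 13.7 and 21.7 CPM in SPF pools 1, 2, 7 and 8, so the groups overlapped (log2 fold change 0.30 ± 0.16, adjusted p in edgeR 0.73). Ccnb1, the cyclin B of mitotic entry, stood at 61.3, 63.1, 40.9 and 52.1 CPM against 45.1, 52.3, 34.1 and 53.5 CPM (0.28 ± 0.16). Its CVT values in pools 3 and 4 lay above every SPF value.

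Cenpa, the histone variant that marks centromeres, and Cdca3 had the smallest adjusted p of the list (0.66). Cenpa stood at 176, 168, 152 and 176 CPM in CVT and at 158, 145, 119 and 151 CPM in SPF pools (0.28 ± 0.08), with CVT pool 5 inside the SPF range. Cdca3 stood at 81.0, 84.9, 67.6 and 83.5 CPM against 66.4, 69.9, 62.9 and 72.2 CPM (0.27 ± 0.08), again with CVT pool 5 inside that range.

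Cdc20, the activator of the anaphase-promoting complex, differed by housing in pools 1 to 4 more than in pools 5 to 8. It stood at 87.6, 84.4, 57.7 and 62.7 CPM in CVT and at 61.2, 67.0, 53.7 and 72.1 CPM in SPF pools. The CVT minus SPF difference of the means was 21.9 CPM in pools 1 to 4 and -2.68 CPM in pools 5 to 8, while that of Ube2c was 15.96 and 15.3 CPM. Ube2c stood at 119, 118, 107 and 143 CPM against 104, 102, 93.1 and 126 CPM. Of the 47 genes 38 had a higher CVT mean in pools 1 to 4 and 43 in pools 5 to 8, and for 0 of 47 did the difference between the sets pass the interaction test (0% of 13092 genes).

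The other members shown in full also overlapped. Mki67 stood at 108, 100, 96.4 and 121 CPM in CVT and at 98.4, 103, 85.0 and 107 CPM in SPF pools, and Top2a at 206, 201, 191 and 244 against 198, 226, 176 and 217 CPM. Cdk1 stood at 110, 110, 86.4 and 101.03 against 85.4, 105, 81.7 and 103 CPM, and Aurkb at 43.1, 43.7, 35.4 and 44.95 against 35.6, 41.6, 33.2 and 43.5 CPM. In each of these 4 genes the housing groups overlapped.

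Cks2 stood at 498, 468, 447 and 472 against 435, 473, 377 and 439 CPM, and Cks1b at 310, 303, 287 and 330 against 271, 300, 259 and 306 CPM. Birc5, which encodes survivin of the chromosomal passenger complex, stood at 166, 157, 145 and 181 against 144, 154, 131 and 162 CPM. Pool 7 was the lowest or near the lowest pool for most of these genes.

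Among the genes shown only for their role, Prc1, which bundles midzone microtubules, stood at 43.0, 39.02, 34.0 and 47.04 CPM in CVT and at 40.3, 39.4, 29.0 and 40.2 CPM in SPF pools. Foxm1 had the fewest UMIs of the list, 1616 in all, and stood at 4.64, 4.45, 4.96 and 5.85 against 4.10, 5.09, 4.19 and 4.67 CPM. Kif11, the motor that pushes spindle poles apart, had the smallest fold change (0.04 ± 0.11), and its mean CPM was 23.5 ± 4.32 in CVT and 23.6 ± 0.74 in SPF pools.

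The 47 genes summed to 3167, 3054, 2684 and 3188 CPM in CVT pools and to 2738, 2940, 2380 and 2982 CPM in SPF pools (means 3023 ± 234 and 2760 ± 275, SD, n = 4). High-count cells made up 7.99%, 7.40%, 7.16% and 9.55% of CVT and 6.94%, 7.54%, 5.47% and 8.34% of SPF pools (8.03% ± 1.07 against 7.07% ± 1.21). Both measures overlapped between housing groups. Without pool 7 the CVT minus SPF difference fell from 263 to 136 CPM in the sum and from 0.953 to 0.420 percentage points in high-count cells, and without pool 6 the latter was 0.444. With a count of 40 in place of 20 the direction turned, at 0.566% ± 0.117 of CVT and 0.844% ± 0.276 of SPF cells. Pool 7 was lowest in both and also held the most mature neutrophil transcripts (1021 CPM), and the part of that in its level was not tested.

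Within gates the direction was not uniform. In the erythroid gate 47 genes were tested, 0 were called (0% of 9390 genes), 38 leaned higher in CVT against 50% of all genes, and the median log2 fold change was 0.09. Foxm1 had the largest value there (0.44 ± 0.26) and Kif20a, a kinesin of cytokinesis, the lowest (-0.19 ± 0.12). Cdca3 alone had groups that did not overlap (1.09% of all genes were apart with CVT higher and 1.24% lower), at 125 ± 6.51 against 111 ± 5.55 CPM.

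In the stem gate 13 genes passed the filter and 0 were called (0% of 3877 genes), with 6 positive and 7 negative values (50.6% of all genes were positive) and 0 with groups apart (0.825% of all genes with CVT higher, 2.19% lower), from -0.49 ± 0.31 for Cdk1 to 0.59 ± 0.31 for Cenpa. In the early granulocyte-monocyte gate 14 passed and 0 were called (0% of 3397 genes), from -0.58 ± 0.35 for Pttg1 to 0.80 ± 0.30 for Cenpa. Of the 14, 10 were positive and 4 negative (49.8% of all genes were positive), with a median of 0.17. Related lists leaned the other way there, with 3 of 14 other mitosis genes and 8 of 34 G1/S genes positive. Ccnb2, the other mitotic cyclin B, had groups that did not overlap there, at 86.0 ± 11.6 against 58.1 ± 10.4 CPM. Over all genes 1.15% were apart with CVT higher and 2.97% with CVT lower. Ccnb2 rests there on 154 UMIs in all, with 5 in the lowest pool. The early granulocyte-monocyte gate held 11 to 36 cells per pool and the stem gate 27 to 128. Of the 41 genes that could be tested for a different housing effect in the erythroid and early granulocyte-monocyte gates, 0 were called (0.0178% of 5624 genes).

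Neutrophil-gate cells leaned the opposite way, although a difference in housing effect between this gate and others was not tested. There 46 genes were tested, all but Foxm1, and 0 were called in edgeR (0% of 7910 genes), but 40 of 46 had a negative log2 fold change, 17 had an unadjusted p under 0.05 with a lower CVT level (2.97% of all genes) and 6 had housing groups that did not overlap with CVT lower (2.41% of all genes were, and 1.68% with CVT higher). The median log2 fold change was -0.28. Those 6 were Spc25, Nuf2, Aurkb, Top2a, Ckap2l and Hmmr, of which Spc25 and Nuf2 are subunits of 1 kinetochore complex. Over all genes 51.3% had a positive value.

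Spc25 stood at 21.4, 18.03, 17.1 and 20.5 CPM in CVT pools 3 to 6 and at 34.2, 39, 26.4 and 39.1 CPM in SPF pools 1, 2, 7 and 8. Every CVT pool was below every SPF pool (log2 fold change -0.87 ± 0.16, adjusted p in edgeR 0.081). Top2a stood at 94.4, 109, 93.8 and 124 against 183, 157, 126 and 167 CPM (-0.56 ± 0.11, adjusted p in edgeR 0.10), and Aurkb at 26.5, 35.5, 27.1 and 36.9 against 39.96, 51.0, 47.2 and 49.8 CPM (-0.58 ± 0.15). Both Top2a and Aurkb were separated by pool as well.

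Anln, the scaffold of the contractile ring, had the lowest log2 fold change (-0.99 ± 0.27), at 5.42, 5.44, 5.90 and 4.45 CPM in CVT and 5.71, 11.4, 9.71 and 12.2 CPM in SPF pools, where pool 1 overlapped. It rests on 109 UMIs in all. At the upper end stood Kif20a (0.19 ± 0.25) and Ckap2 (0.15 ± 0.22), while Cks2 (-0.02 ± 0.09) and Ccnb2 (0.01 ± 0.14) were nearest to 0 beside Pttg1.

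The summed level in the neutrophil gate was 2479, 2570, 2645 and 2676 CPM in CVT and 2843, 3148, 2782 and 3125 CPM in SPF pools (2593 ± 87.9 against 2974 ± 189), without overlap. The order was the same in both pool sets, at means of 2524 against 2995 CPM in pools 1 to 4 and 2661 against 2953 CPM in pools 5 to 8. High-count cells were 4.10% ± 1.11 of CVT and 6.02% ± 2.37 of SPF neutrophil-gate cells and overlapped. The other mitosis genes were apart as well (2234 ± 47.1 against 2496 ± 84.4 CPM), while G1/S genes overlapped (3610 ± 294 against 3716 ± 211 CPM). The gate held 36, 95, 41 and 120 cells in the SPF pools and 198, 193, 122 and 160 in the CVT pools, with a median of 16746 ± 1337 and 15612 ± 1751 UMIs per cell over pools, and the part of cell number and depth in the difference was not tested.

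Members called in this gate depended on the fit. With the pool sets as a block Spc25 and Top2a were called lower (adjusted p in edgeR 0.0067 for each), with every gene that had at least 1 UMI tested Spc25, Top2a, Ube2c, Nusap1 and Aurkb were, and with the highest doublet scores removed Spc25 was. DESeq2 called 0 of the 47, and no fit that left out 1 pool called any.

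**Figure D5:**
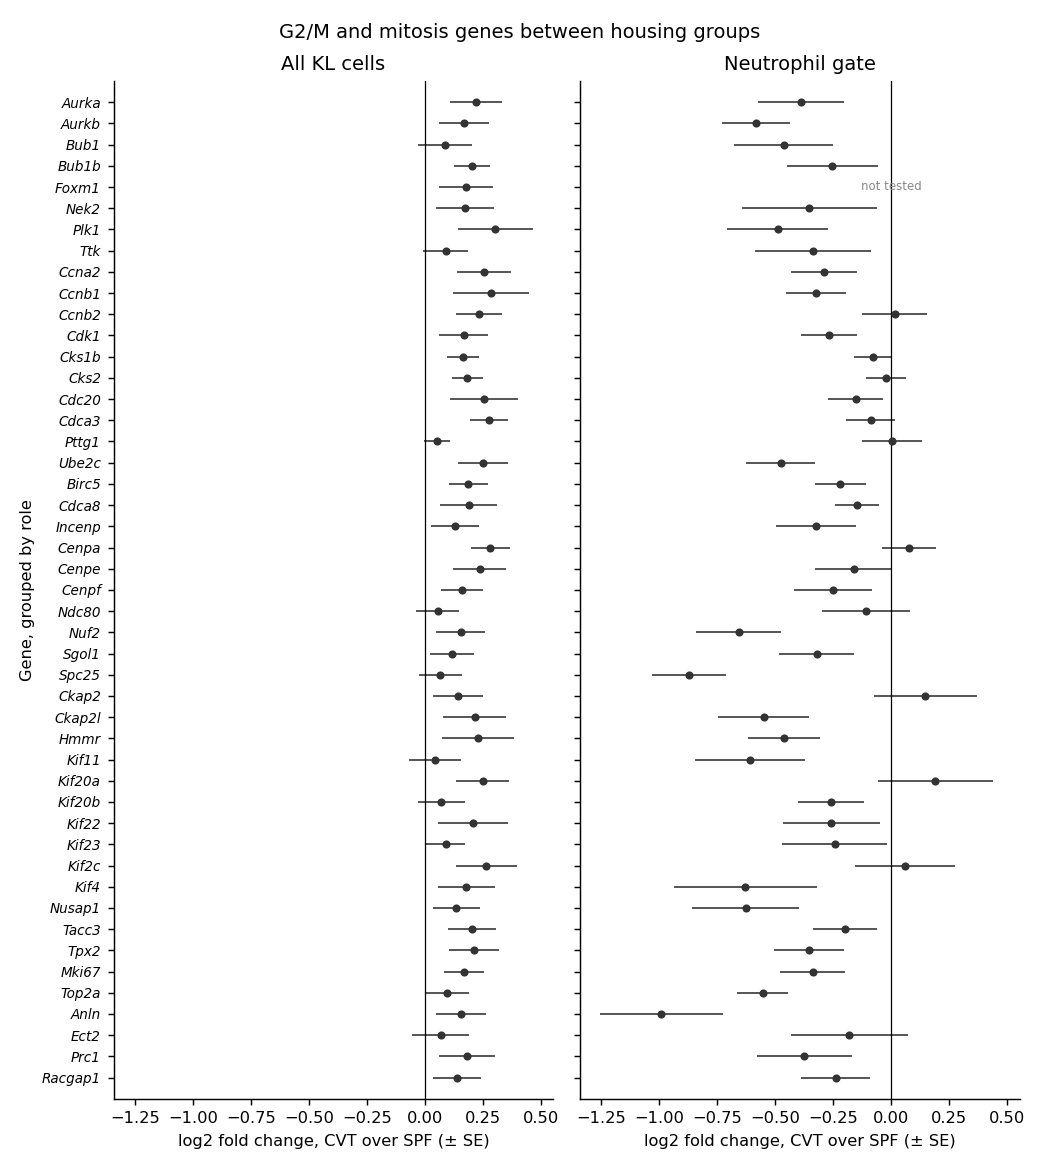
Log2 fold change of each of the 47 genes between housing groups (CVT over SPF) with its standard error from edgeR, in all KL cells (left) and in the neutrophil gate (right), n = 4 pools per group. All values are positive on the left, up to 0.30 for Plk1, and 40 of 46 are negative on the right, down to -0.99 for Anln, and no gene passed the adjusted test in either panel.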

How the data were processed

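KL cells of 8 pools were sorted and sequenced with droplet 3′ chemistry (10x Genomics, version 2 kit), and the authors deposited 1 table of raw UMI counts per gene and cell, without normalization, made with Cell Ranger (version not given in the sources used here) on mm9 per the labels. Cells were assigned to pools by the number ending each cell name. Counts were summed per pool, or per pool and gate with at least 10 cells, and tested with edgeR 4.0.16 in R 4.3.3 (TMM, filterByExpr, quasi-likelihood test, Benjamini-Hochberg adjustment over all genes, threshold 0.05), with the pool as a block between gates, since both gates came from the same pools. Standard errors were the log2 fold change divided by the square root of F. CPM are UMI counts scaled to the total of a pool or gate and are not per length, so levels were compared within a gene. DESeq2 1.42.0 was an alternative. Cells were thinned at random to 2759 UMIs with Python 3.11.15 and numpy 2.4.6. Scripts were tested on simulated data. The doublet caller marked 129 of 29891 cells (0.432%), so its calls were not used, and the 965 cells with the highest scores were removed as an alternative instead. Gates use UMI counts of a few genes and can hold other cell types. Intervals cover the spread between pools, which share mice within a pool. The members, gene lists and gates were chosen with earlier results of these data known. Genes named were the highest member of each role, 12 regulators, and for each comparison the 2 lowest and 2 highest fold changes, with the 3 lowest and 3 highest ratios between high-count and other cells; others were named after their values were seen.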

Additional observations from a re-analysis of the deposited data

Results flagged for a closer look

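In 62 groups of 4 pools, a pool was set apart where its gap to the nearest other pool divided by the group's range exceeded Dixon's critical value; chance alone does this in about 1 in 20 groups, and 4 were found. Prc1 in all KL cells was 29.0 CPM in SPF pool 7, below the other SPF pools. The summed level of the 47 genes was 3223 CPM in the lymphoid gate of SPF pool 8, 4663 CPM in the erythroid gate of CVT pool 6 and 4962 CPM in the specific granule gate of CVT pool 3, each above the other pools of its group.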

How the results depend on the processing

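Among the housing values of the genes chosen by rule, 488 kept their direction and side of the threshold under the alternatives, 3 became calls (each Spc25 in the neutrophil gate) and 4 changed sign. Over all 47 genes and every housing alternative there were 8 calls, in the neutrophil gate: Spc25 in 3 alternatives, Top2a in 2, and Aurkb, Nusap1 and Ube2c in 1 each. Between gates 890 values of the genes chosen by rule were kept, 20 became calls, 18 changed sign and 22 lost a call. The causes were not tested. Called genes over all KL cells went from 0 to 5 higher and 10 lower in DESeq2 and to 1 and 3 when pool set was a block. With every gene of at least 1 UMI tested, 8 were higher and 1 lower in the stem gate, 17 and 17 in the erythroid, 7 higher in the early granulocyte-monocyte, and 14 higher and 33 lower in the neutrophil gate, 5 of them among the 47. In the neutrophil gate the pool-set block called 2 higher and 14 lower (2 of the 47), removal of high doublet scores 5 lower (1 of the 47) and DESeq2 1 lower. DESeq2 called 1 higher in the erythroid gate, and the pool-set block 1 higher in the early granulocyte-monocyte gate. Leaving out 1 pool gave 0 to 4 higher and 0 to 1 lower in the stem gate, 0 to 1 higher in the erythroid and early granulocyte-monocyte gates and 0 to 7 lower in the neutrophil gate. Without pool 6 Kif11 was -0.086 in all KL cells (-0.00782 with library totals) and Cdca8 -0.057 in the stem gate, and without pool 8 Ckap2 was -0.10 in the neutrophil gate. The summed difference in all KL cells, 263 CPM, ranged from 136 without SPF pool 7 to 376. With the 12 gates weighted equally it was 171 CPM, and the difference in high-count cells was then 0.865 percentage points. The difference in high-count cells, 0.953 percentage points, was 0.420 to 1.37 without 1 pool, 4.59 at a count of 10 and -0.278 at 40.

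Between gates, gating on thinned cells changed how many of the 47 genes could be tested. Against the stem gate 13 of 15 tested were higher in neutrophil (27.9% of all genes) and 15 of 18 in lymphoid cells (12%). In erythroid cells 0 of 34 were lower (30%). Against the neutrophil gate 2 of 46 were lower in erythroid cells (33.4%). In late granulocytes 4 of 39 were higher (29.7%) and 5 lower (29.8%). Between the neutrophil and stem gates 1 gene was lower in CVT pools alone (1644 of all 7096 genes were) and in SPF pools alone (1549 of 5878). Again 1 was lower with every gene tested (2844 of 15216) and without pools 1 and 7 (2197 of 7570). SPF pools alone gave 24 of 46 higher (29% of all genes) and 2 lower (28.5%) in erythroid against neutrophil cells. They gave 1 of 44 lower in the specific granule gate (31.5%) and 12 of 42 higher in the late granulocyte gate (22.4%). Library totals gave 0 of 47 lower in erythroid against neutrophil cells (27.3% of all genes). In late granulocytes they gave 8 of 45 higher (15.5%) and 4 lower (52.7%). There DESeq2 gave 2 lower (1825 of all 11311 genes) and testing every gene also 2 (2414 of 15123). Over all genes the split of higher and lower calls moved from 2153 and 2153 to 871 and 4016 in the specific granule and from 2009 and 1955 to 1110 and 3772 in the late granulocyte comparison. Cenpf between neutrophil and stem gates was -0.0432 with no replicate block, -0.0296 on thinned gates, -0.029 in SPF pools, -0.137 with library totals and -0.073 without pools 1 and 7. In SPF pools Aurkb was -0.11, Cdc20 -0.082 and Cks2 -0.013 in erythroid against neutrophil cells. Cks2 was -0.32 with library totals in the specific granule gate. In late granulocytes thinned gates gave Ccnb1 -0.47, Cdk1 -0.12, Birc5 -0.139, Cdc20 -0.32 and Aurkb -0.42, library totals Cdc20 -0.0744 and Aurkb -0.34, SPF pools Aurkb -0.34 and DESeq2 Aurkb -0.053.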

Other observations

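Roles differed in how their share of the 47 transcripts changed from thinned cells with 1 to 4 UMIs to those with 40 or more. Centromere and kinetochore genes went from 10.1% ± 0.39 to 15.1% ± 1.09 (SD, n = 8 pools), midzone and cytokinesis genes from 2.49% ± 0.24 to 4.42% ± 0.58, and mitotic kinases with Foxm1 from 2.65% ± 0.20 to 5.28% ± 0.71. Chromosomal passenger subunits were highest in cells with 10 to 19 UMIs, at 11.5% ± 0.19, against 9.73% ± 0.91 in cells with 40 or more. These bins are set by the same transcripts, so the shares are a description.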
